A study of Mus musculus with 18 samples.

Results

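B16F10 is a mouse melanoma cell line derived from C57BL6 mice, and the comparison set 3 libraries of B16F10 cells carrying MRTFB in the pRetrox vector against 3 libraries of B16F10 cells carrying the vector alone as control. These 6 of 18 libraries were chosen by their labels: all libraries of both groups entered, and libraries with equal replicate numbers were treated as pairs. All cells, controls included, had received doxycycline at 500 ng/mL for 48 h, an agent that switches on tetracycline-controlled vectors. The other 12 libraries were B16F10 cells with MRTFA and E0771 mammary tumour cells with MRTFB, MRTFA or the control vector, with 3 libraries a group. Nothing in the labels tells if replicates came from different cultures or if a line was 1 clone, so p-values measure only the spread between these libraries, which may be technical.

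The proteins MRTFA and MRTFB act through serum response factor (SRF), a transcription factor that binds a short DNA element called the CArG box. Monomeric actin holds them in the cytoplasm; when actin assembles into filaments they enter the nucleus and, with SRF, switch on genes of the actin cytoskeleton, of smooth and striated muscle and of cell adhesion. Melanoma cells arise from the pigment lineage, whose genes include those of melanin synthesis. In the table the gene of MRTFB is listed under its older symbol Mkl2 and that of MRTFA as Mkl1.

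Values are scaled reads, that is reads per gene divided by a size factor of the library, and differences are on the log2(scaled reads + 1) scale as fitted by limma with replicate number as a block. Genes whose adjusted p (Benjamini-Hochberg, over all tested genes) was below 0.05 are referred to as called. The 9 B16F10 libraries held 29928592 to 32344081 reads each. The libraries numbered 3 stood apart in the MRTFB and control groups. In the MRTFA group, by a comparison of reads, replicates 1 and 3 were closer to each other than either was to replicate 2. Over the 9 B16F10 libraries 4206 of 13517 tested genes (31.1%) differed with replicate number, 1667 of them being higher and 1579 lower in number 3 than in both other numbers. The second principal component, 18.5% of the variance, put MRTFB replicate 3 and control replicate 3 at the same end. Pigment genes marked the line as labelled: the 21 tested melanocyte genes summed to 777816 to 962923 scaled reads in MRTFB libraries and 801725 to 1019219 in control libraries. Markers of other cell types were low, with the 5 immune markers in the table summing to 52.4 to 79.2 in MRTFB and 34.1 to 121 in control libraries, 6 endothelial or fibroblast markers to 459 to 638 in MRTFB and 505 to 666 in control libraries, and 3 skeletal muscle lineage markers to 39.4 to 59.1 in MRTFB and 40.9 to 80.2 in control libraries. Of these last 3, Tnnt3 was at 0 in all 6 libraries. Fewer cells that express a gene and less of its RNA per cell cannot be told apart in these bulk libraries.

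Reads of Mkl2 did not separate the groups; how many of them came from the vector was not measured. Mkl2 (ENSMUSG00000009569.14, GRCm38 chromosome 16, 13256481 to 13417529) had 1964, 1738 and 1955 scaled reads in MRTFB replicates 1, 2 and 3, against 1290.0, 1333 and 1881 in control replicates 1, 2 and 3. The groups overlap, because control replicate 3 was above MRTFB replicate 2. The fitted difference was 0.35 (SE 0.09, adjusted p = 0.0534 by limma; 0.503 without the replicate block), so Mkl2 was not called. It was called with DESeq2 (0.35, adjusted p = 0.00957), and by limma without MRTFB replicate 3 (0.45, adjusted p = 0.0118), without control replicate 3 (0.47, adjusted p = 0.00229) and without all libraries numbered 3 (0.49, adjusted p = 0.000509). Mkl2 lies on chromosome 16, whose genes as a whole were higher in MRTFB libraries, with a median difference of 0.19. Mkl1 had 977, 768 and 1131 in MRTFB libraries and 1109, 987 and 949.7 in control libraries (−0.10, adjusted p = 0.678), and Srf, the partner of both proteins, 1236, 1466 and 1854 in MRTFB and 1315, 1520.0 and 1576 in control libraries (0.03, adjusted p = 0.915). The libraries are therefore called MRTFB by their label, which their Mkl2 level did not settle.

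MRTFB libraries showed a small set of very large increases in muscle actins and their partners, above a broad layer of modest changes in both directions. Of 13517 tested genes 603 were called (4.46%), 220 higher (1.63%) and 383 lower (2.83%). The median called increase was 0.42 and the median called decrease −0.49. Changes of at least 2-fold numbered 47 higher and 80 lower, and those of at least 8-fold 11 higher and 3 lower. The values of 418 did not overlap between the groups (141 higher, 277 lower); over all tested genes 1869 (13.8%) did not overlap. The filter on low values asked for at least 10 scaled reads in 3 of the 9 B16F10 libraries, and 15 called genes (11 higher, 4 lower) met it only with the help of MRTFA libraries; among those named here they are Cnn1, Kcnmb1, Actc1, Il11, Serpinb2, Hopx and Coro1a.

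**Figure D1:**
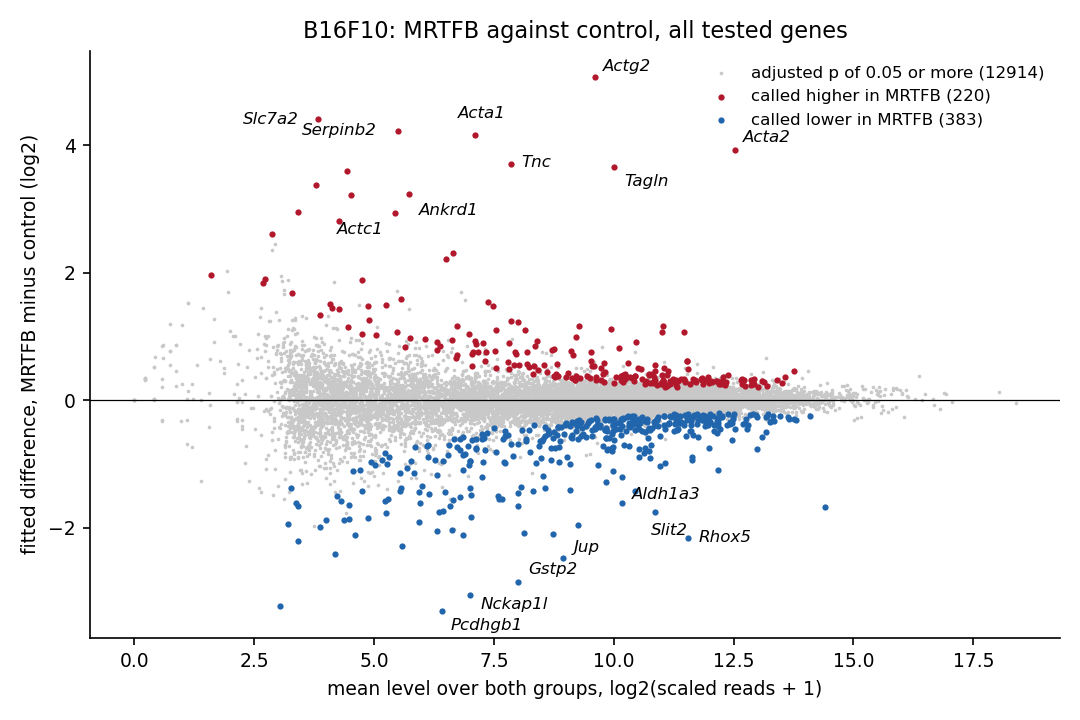
Fitted log2 difference, MRTFB minus control, against the mean level of both groups on a log2 scale, for all 13517 tested genes; red and blue points are the 220 genes called higher and the 383 called lower. The actins Actg2, Acta1 and Acta2 lie at 3.93 to 5.07, far above the median called increase of 0.42.

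The number of calls rested on the pairing and on single libraries. Without the replicate block limma called 17 genes (0.126%), 2 higher (0.0148%) and 15 lower (0.111%), all of them among the 603. With the block, the count was 64 without MRTFB replicate 2, 114 without MRTFB replicate 1, 71 without control replicate 1 and 87 without control replicate 2, but 1645 without control replicate 3. Leaving out the libraries numbered 3 in every group gave 1642 (754 higher, 888 lower). Among the 3 controls, replicate 3 lay nearest to the mean of the MRTFB libraries for 164 of the 220 genes called higher and 242 of the 383 called lower, against 5224 of all 13517 (38.6%). Called in every fit that left out 1 library were 16 higher and 37 lower genes, of which 15 and 37 were also called without all libraries numbered 3.

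Contractile genes of smooth muscle were among the largest increases. Gamma smooth muscle actin, Actg2 (ENSMUSG00000059430.14, GRCm38 chromosome 6, 83512905 to 83536265), had 528, 281 and 3772 scaled reads in MRTFB replicates 1, 2 and 3, against 18.3, 11.7 and 60.1 in control replicates 1, 2 and 3. It was near silent in control cells and every MRTFB library was above every control library; the fitted difference was 5.07 (SE 0.43, adjusted p = 0.00108; 0.0702 without the block). Alpha smooth muscle actin, Acta2 (ENSMUSG00000035783.8, GRCm38 chromosome 19, 34241090 to 34255590), had 3856, 2146 and 28018 in MRTFB libraries and 463, 176 and 798 in control libraries (3.93, SE 0.41, adjusted p = 0.00174; 0.159 without the block). The actin-binding Tagln (ENSMUSG00000032085.4, GRCm38 chromosome 9, 45929619 to 45936058) had 630.0, 458 and 4709 in MRTFB and 55.8, 43.8 and 265 in control libraries (3.66, adjusted p = 0.0022). MRTFB replicate 3 was the highest library for each of these genes and control replicate 3 the highest control, so the level moved with replicate number, and each MRTFB library was above its paired control. Actg2, Acta2 and Tagln stayed called in every fit that left out 1 library; without all libraries numbered 3 the fitted differences were 4.63 for Actg2 and 3.33 for Acta2. The muscle actins are close paralogs that may share reads, and 67.9% of the exon bases of Tagln overlap an antisense gene, so without a stated strand its reads are uncertain.

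**Figure D2:**
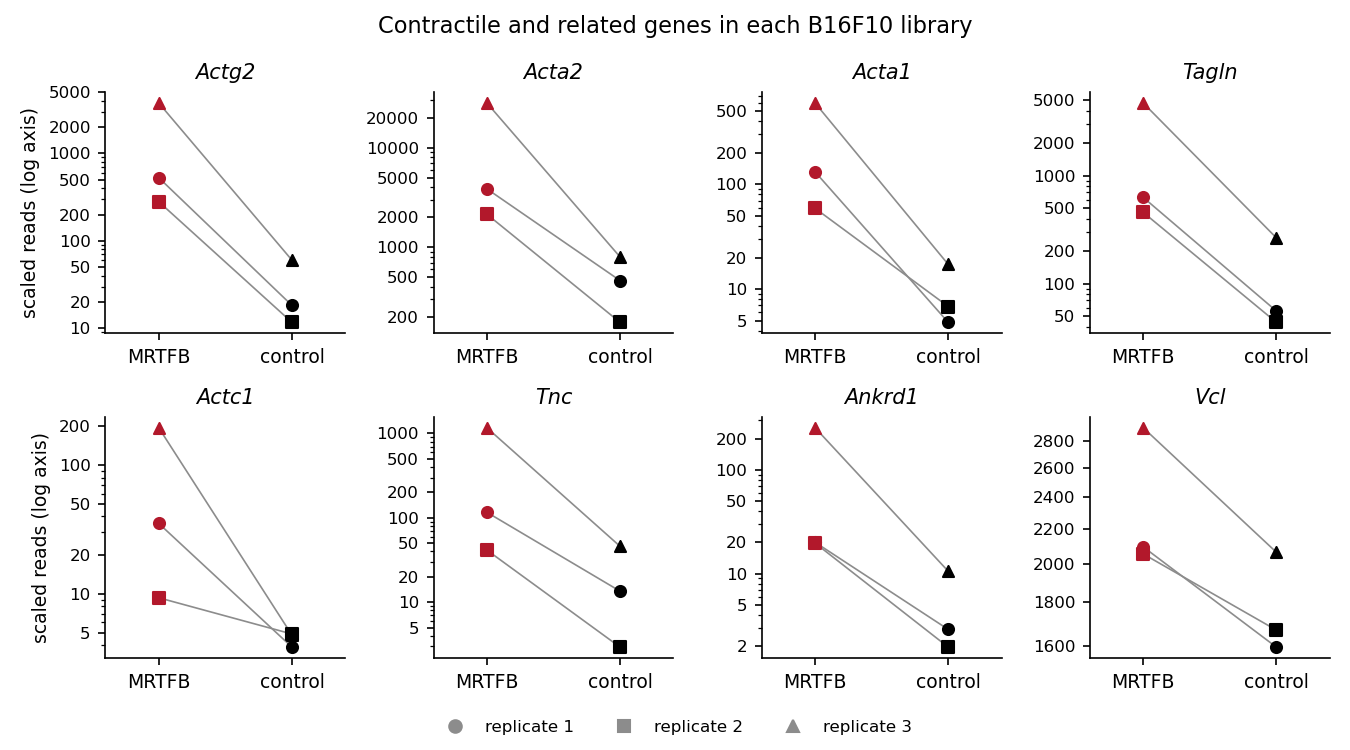
Scaled reads on a log axis for 8 genes in the 3 MRTFB (red, left) and 3 control (black, right) libraries of B16F10; grey lines join libraries of equal replicate number. In every panel each MRTFB library is above its paired control, and replicate 3 is the highest MRTFB library.

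Of 22 listed smooth muscle contractile genes 21 were in the table and 18 were tested. Among the 18, 9 rose and none fell, beside 1.63% of all genes called higher and 2.83% called lower. The list had a median difference of 0.67 beside 0.00125 over all tested genes. In a fit of the 6 MRTFB and control libraries alone 15 were tested, 4 were called higher and the median was 0.41, and without the replicate block none of the 18 was called. Besides the genes above the 9 included the calcium-activated potassium channel subunit Kcnmb1, smooth muscle myosin heavy chain Myh11 (adjusted p = 0.0177), calponin Cnn1, leiomodin Lmod1, myosin light chain Myl9 and its kinase Mylk. Kcnmb1 had 74 reads over the 3 MRTFB libraries and 3 over the control libraries, a ratio of 25.5 with a 95% counting interval of 8.39 to 126. Myl9, already expressed in control cells, had 1075, 789 and 3578 scaled reads in MRTFB and 482, 426 and 2172 in control libraries (0.92, adjusted p = 0.035). The groups overlap because control replicate 3 was above MRTFB replicates 1 and 2. Myl9 was not called with edgeR (adjusted p = 0.0526) or DESeq2 (0.05995), nor by limma without MRTFB replicate 1 (0.106) or 2 (0.157). Cnn1 stayed very low at 3.81, 1.04 and 25.1 in MRTFB and 0, 0 and 3.82 in control libraries (adjusted p = 0.0491) and was tested only because of its MRTFA libraries, given below. Its call was lost with edgeR (adjusted p = 0.158), DESeq2 (0.185), TMM scaling (0.0510), a pseudocount of 5 (0.102), no filter on low values (0.0639) and a minimum value of 50 (0.0585), and in every fit that left out 1 library other than control replicate 3. The general smooth muscle genes Smtn (−0.12, adjusted p = 0.592), Cald1 (0.11, adjusted p = 0.536) and Des (−0.27, adjusted p = 0.451) were not called. The count of 9 was 4 without MRTFB replicate 2 and 4 without control replicate 1, 6 without MRTFB replicate 1 and 5 without control replicate 2.

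Actins and partners of striated muscle moved in the same libraries. Skeletal muscle actin, Acta1 (ENSMUSG00000031972.4, GRCm38 chromosome 8, 123891769 to 123894751), had 132, 59.0 and 596 scaled reads in MRTFB libraries, against 4.81, 6.82 and 17.2 in control libraries (4.16, SE 0.42, adjusted p = 0.00174). Cardiac actin, Actc1 (ENSMUSG00000068614.7, GRCm38 chromosome 2, 114047282 to 114053548), had 35.3, 9.32 and 195 in MRTFB and 3.85, 4.87 and 4.77 in control libraries (2.94, adjusted p = 0.0248). In MRTFB replicate 2 Actc1 was at less than 10 scaled reads, above its control by a few reads only. The titin-binding ankyrin-repeat gene Ankrd1 (ENSMUSG00000024803.8, GRCm38 chromosome 19, 36111961 to 36120099), which responds to mechanical load in muscle, had 20.01, 19.7 and 255 in MRTFB and 2.89, 1.95 and 10.5 in control libraries (3.24, adjusted p = 0.00904). Of 14 tested striated muscle genes these 3 rose and the slow troponin Tnnt1 fell, beside 1.63% of all genes called higher and 2.83% called lower. Tnnt1 had 24.8, 18.6 and 18.04 in MRTFB and 39.4, 41.9 and 44.9 in control libraries (−1.01, adjusted p = 0.0311). Tnnt3 and the myosin Myh6 were at 0 in all 6 libraries. In a fit of the 6 MRTFB and control libraries alone 9 of the 14 were tested, 2 were called higher and none lower. None of the 14 was called without the replicate block. With the block, 1 was called higher and none lower without control replicate 1.

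Among the 10 called increases whose promoter window holds a CArG box, the element bound by SRF, were Acta1, Actc1, Myl9 and Vcl. Their RefSeq windows are shown because they are promoters of contractile or cytoskeletal genes that rose (GRCm38.p6, 250 bases before to 50 after the start, 5′ to 3′ on the gene's strand, with the box in capitals).
Acta1 (chr8:123894726-123895025, minus strand): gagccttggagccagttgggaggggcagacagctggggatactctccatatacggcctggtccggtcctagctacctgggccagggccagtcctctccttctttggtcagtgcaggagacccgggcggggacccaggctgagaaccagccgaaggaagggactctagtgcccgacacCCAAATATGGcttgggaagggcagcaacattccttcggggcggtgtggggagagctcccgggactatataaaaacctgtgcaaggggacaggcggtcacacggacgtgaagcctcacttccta
Actc1 (chr2:114052826-114053125, minus strand): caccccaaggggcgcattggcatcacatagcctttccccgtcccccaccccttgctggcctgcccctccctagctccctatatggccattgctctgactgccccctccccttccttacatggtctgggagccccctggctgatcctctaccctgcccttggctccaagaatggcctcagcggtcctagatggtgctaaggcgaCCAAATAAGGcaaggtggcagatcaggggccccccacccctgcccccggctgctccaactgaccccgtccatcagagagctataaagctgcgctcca
Myl9 (chr2:156775214-156775513, plus strand): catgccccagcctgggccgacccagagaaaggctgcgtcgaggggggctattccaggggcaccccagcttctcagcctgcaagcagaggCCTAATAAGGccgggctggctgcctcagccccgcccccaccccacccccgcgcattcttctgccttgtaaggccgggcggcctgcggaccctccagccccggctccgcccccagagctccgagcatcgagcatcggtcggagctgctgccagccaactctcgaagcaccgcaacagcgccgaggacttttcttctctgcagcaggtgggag
Vcl (chr14:20929148-20929447, plus strand): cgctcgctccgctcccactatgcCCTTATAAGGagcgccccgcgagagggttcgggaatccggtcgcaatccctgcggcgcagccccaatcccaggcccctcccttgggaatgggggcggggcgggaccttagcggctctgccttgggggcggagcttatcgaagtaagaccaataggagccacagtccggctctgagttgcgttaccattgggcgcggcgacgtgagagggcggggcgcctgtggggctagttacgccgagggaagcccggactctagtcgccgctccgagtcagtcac
The box begins 73 bases before the start of Acta1, 47 before that of Actc1, 161 before that of Myl9 and 227 before that of Vcl. The search took the palindromic 10-base CArG box with no mismatch, which reads the same class of sites on both strands.

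A CArG box was found in 10 of the 174 called increases with a promoter in the RefSeq table (5.75%) and in 3 of the 31 increases of at least 2-fold (9.68%), against 159 of 9567 for all tested genes (1.66%) and 488 of 27025 for all genes of the table (1.81%). Of the called decreases, 6 of 277 (2.17%) had one. The other 6 increases with a box, named after their values were seen, were Hopx, Klf8, Glipr2, Robo1, Filip1l and Ica1. Robo1 and Filip1l lie on chromosome 16, whose genes as a whole were higher in MRTFB libraries. The window of Acta2 held no perfect match. A match is a description of the letters, not a measured site.

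Of 39 tested cytoskeletal targets of MRTF and SRF 3 rose and 2 fell, with a median difference of 0.10, beside 1.63% of all genes called higher and 2.83% called lower. None was called without MRTFB replicate 2 or without control replicate 1, and 4 higher and 2 lower without control replicate 3. The focal adhesion protein vinculin, Vcl, had 2096, 2056 and 2902 scaled reads in MRTFB and 1593, 1669 and 2065 in control libraries (0.40, SE 0.08, adjusted p = 0.0251; 25.5% of its exon bases overlap Ap3m1 on the opposite strand), and beta-tropomyosin, Tpm2, had 63.9, 37.3 and 407 in MRTFB and 17.3, 5.84 and 65.9 in control libraries (2.31, adjusted p = 0.0162). The third was the filamin-interacting Filip1l (0.34, adjusted p = 0.0461, on chromosome 16). With edgeR Tpm2 was not called (adjusted p = 0.0610). The actin-binding Ablim1 (−0.46, adjusted p = 0.0104) and the myosin light chain Myl12b (−0.22, adjusted p = 0.0472) fell. The abundant cytoplasmic actins were not called: Actb had 85245, 86525 and 115864 in MRTFB and 82674, 88301 and 95887 in control libraries (0.10, 95% interval −0.10 to 0.30, adjusted p = 0.595) and Actg1 had a difference of 0.20 (95% interval 0.04 to 0.37, adjusted p = 0.154). Nor were Tpm1 (0.15, adjusted p = 0.285), Fhl2 (0.87, adjusted p = 0.458) or Srf. Of the 15 tested genes of the MRTF, SRF and ternary complex factor list none rose and the cofilin kinase Limk1 fell (−0.50, adjusted p = 0.0396).

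Matrix and pericellular protease genes moved both ways. Tenascin C, Tnc (ENSMUSG00000028364.15, GRCm38 chromosome 4, 63959785 to 64047015), a matrix glycoprotein of wounds and tumours, had 116, 41.4 and 1171 scaled reads in MRTFB libraries, against 13.5, 2.92 and 45.8 in control libraries (3.70, SE 0.57, adjusted p = 0.00849). MRTFB replicate 3 was far above the other MRTFB libraries, and MRTFB replicate 2 was below control replicate 3. Basement membrane collagen Col4a2 had 2714, 2118 and 3367 in MRTFB and 1123, 906 and 2046 in control libraries (1.07, adjusted p = 0.00424) and stayed called whichever library was left out; laminin Lama5 (0.86, adjusted p = 0.0104) and collagen Col12a1 (1.24, adjusted p = 0.0151) also rose, while thrombospondin 2, Thbs2, fell (33.4, 24.9 and 49.1 in MRTFB, 89.5, 97.4 and 81.1 in control libraries; −1.35, adjusted p = 0.0155). These are 4 higher and 1 lower of 26 tested matrix genes, beside 1.63% of all genes called higher and 2.83% called lower. The list median was 0.07. Without MRTFB replicate 2 or either of control replicates 1 and 2, 2 were higher and none lower, and without control replicate 3 it was 4 and 3. Col4a1, the usual partner chain of Col4a2, had 2944, 2208 and 4759 in MRTFB and 3235, 2922 and 3458 in control libraries (−0.03, adjusted p = 0.937).

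Of 18 tested proteases, inhibitors and tissue factor 6 rose and 3 fell, beside 1.63% of all genes called higher and 2.83% called lower. The list median was 0.02. The urokinase gene Plau had 91.5, 69.4 and 295 scaled reads in MRTFB and 45.2, 38.0 and 94.5 in control libraries (1.16, adjusted p = 0.0233), and its relative Plat rose by 0.77 (adjusted p = 0.0209). Serpinb2, an inhibitor of urokinase, rose as well: it had 264 reads over the MRTFB libraries and 2 over the control libraries, a ratio of 136 with a 95% counting interval of 37.4 to 1133, nearly all of them in MRTFB replicate 3 (18.1, 3.11 and 243 scaled reads). By limma it was not called with a pseudocount of 5 (adjusted p = 0.0598) or without MRTFB replicate 1 (0.0919). The metalloproteinase inhibitor Timp1 had 262, 255 and 657 in MRTFB and 147, 107 and 275 in control libraries (1.11, adjusted p = 0.00288) and Adamts5 rose by 0.61 (adjusted p = 0.00886). Adam19 (−0.83, adjusted p = 0.0044), Timp3 (−0.46, adjusted p = 0.0115) and Adam12 (−0.40, adjusted p = 0.0336) fell. Of these, Timp1 and Adam19 stayed called whichever library was left out. The counts were 1 higher and 1 lower without control replicate 2, 2 and 1 without MRTFB replicate 2 or control replicate 1, and 3 and 1 without MRTFB replicate 1.

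Growth and adhesion lists held 1 or 2 calls each, beside the 1.63% of all genes called higher and 2.83% called lower. Of 20 tested YAP-TAZ targets Ankrd1 and the angiomotin Amotl2 rose (2962, 3154 and 4601 in MRTFB, 1958, 1964 and 3131 in control libraries; 0.61, adjusted p = 0.00174), while the matricellular genes Ctgf (0.60, 95% interval 0.13 to 1.07, adjusted p = 0.133) and Cyr61 (0.09, 95% interval −0.12 to 0.30, adjusted p = 0.64) were not called. Ctgf had 983, 1310.0 and 5971 in MRTFB libraries and 796, 1037 and 2653 in control libraries, with both libraries numbered 3 at the top of their group. Of 31 integrin and focal adhesion genes caveolin Cav1 (0.99, adjusted p = 0.029) and Lpp (0.41, adjusted p = 0.0151, on chromosome 16) rose, and of 15 TGF-beta and mesenchymal factors Smad3 rose (0.29, adjusted p = 0.0376, on chromosome 9). Among 10 tested chemokines and cytokines interleukin 11, Il11, rose (4.77, 6.21 and 93.2 in MRTFB, 0.962, 0 and 4.77 in control libraries; adjusted p = 0.0194) and Ccl5 fell (−0.63, adjusted p = 0.0388). Il11 reached 10 scaled reads in MRTFB replicate 3 alone of the 6 libraries, and its call was lost with a pseudocount of 5 (adjusted p = 0.0551) and without MRTFB replicate 2 (0.102), control replicate 1 (0.0605) or control replicate 2 (0.0994); DESeq2 gave it no adjusted p. Of 24 DNA replication and mitosis genes the G1 cyclins Ccne1 (0.30, adjusted p = 0.0313) and Ccnd1 (0.31, adjusted p = 0.0391) rose, with a list median of −0.03. Neither the integrin list nor the replication list held a call with the 6 MRTFB and control libraries alone, nor without MRTFB replicate 1, MRTFB replicate 2 or control replicate 1, and the replication list held none without control replicate 2.

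Outside the lists, several genes rose that are not known as contractile genes. The cationic amino acid transporter gene Slc7a2 (ENSMUSG00000031596.15, GRCm38 chromosome 8, 40862396 to 40922308), named after its values were seen, had 29.5, 31.1 and 18.04 scaled reads in MRTFB libraries, against 0, 0 and 0.954 in control libraries. That is 79 reads and 1 read over the groups, a ratio of 81.7 with a 95% counting interval of 14.2 to 3266. It was at 0 in all 3 MRTFA libraries. Slc7a2 therefore met the filter on low values only through the 3 MRTFB libraries, in which it was high, and DESeq2 gave it no adjusted p. Slc7a2 (adjusted p = 0.00793) and Pnma5 (adjusted p = 0.0473) were the 2 genes that limma called higher without the block. Pnma5, of the paraneoplastic antigen family, had 242, 204 and 291 in MRTFB and 75.0, 65.2 and 117 in control libraries (1.54, adjusted p = 0.00452), with no overlap.

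Sgpp2, a phosphatase of sphingosine 1-phosphate, had 61.0, 83.9 and 63.1 scaled reads in MRTFB and 18.3, 18.5 and 32.5 in control libraries (1.58, adjusted p = 0.00945). The cGMP-dependent kinase Prkg2 had 531, 591 and 1473 in MRTFB and 350.1, 224 and 524 in control libraries (1.16, adjusted p = 0.00962), and the actin-binding Aif1l 1024, 1241 and 1827 in MRTFB and 559.9, 686 and 591 in control libraries (1.12, adjusted p = 0.005). In each of them all MRTFB libraries were above all control libraries. The erythroferrone gene Fam132b rose by 1.499 (adjusted p = 0.0101). The amyloid precursor gene App, on chromosome 16, had 3533, 3599.8 and 3838 in MRTFB and 1306, 1177 and 3417 in control libraries (1.07, adjusted p = 0.0258), with control replicate 3 close to the MRTFB libraries. The imprinted noncoding RNA Kcnq1ot1, which lies antisense to Kcnq1, was at 1.04 (adjusted p = 0.0169) and is uncertain without a stated strand.

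The largest decreases fell in genes of varied function, and in most of them control replicate 3 was already part of the way down. Nckap1l (ENSMUSG00000022488.8, GRCm38 chromosome 15, 103453794 to 103498810), a subunit of the actin-regulating WAVE complex that is best known from blood cells, had 27.6, 14.5 and 34.1 scaled reads in MRTFB libraries, against 299, 287 and 101 in control libraries (−3.05, SE 0.39, adjusted p = 0.00413; 0.0433 without the block). Plakoglobin, Jup (ENSMUSG00000001552.14, GRCm38 chromosome 11, 100368958 to 100397763), a junction protein, had 116, 142 and 184 in MRTFB and 869, 1075 and 567 in control libraries (−2.47, SE 0.23, adjusted p = 0.00108; 0.00793 without the block). The X-linked reproductive homeobox gene Rhox5 (ENSMUSG00000095180.8, GRCm38 chromosome X, 37804842 to 37808876) had 1041, 1028 and 981 in MRTFB and 5784, 6682 and 2424 in control libraries (−2.16, adjusted p = 0.00108). In these 3 genes the groups were apart in all libraries, with control replicate 3 the lowest control. The thymosin gene Tmsb4x, whose protein binds monomeric actin, had 88.6, 116 and 342 in MRTFB and 669, 561 and 757 in control libraries (−2.10, adjusted p = 0.00285); here MRTFB replicate 3 was the highest MRTFB library, and its paralogs may share reads.

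The glutathione transferase gene Gstp2, also one of close paralogs, had 71.5, 36.2 and 49.1 scaled reads in MRTFB and 788, 447 and 143 in control libraries (−2.85, adjusted p = 0.00599), and the cGMP phosphodiesterase gene Pde9a 95.3, 90.1 and 62.1 in MRTFB and 624, 695 and 96.4 in control libraries (−2.09, adjusted p = 0.0111). In both, control replicate 3 was several times below the other controls, so the step within pair 3 was the smallest. The class IIa deacetylase Hdac9 (−2.28, adjusted p = 0.00417), the pluripotency-associated Dppa2 (−2.12, adjusted p = 0.00108) and the phosphatase Ptpn13 (−2.05, adjusted p = 0.00564) fell too. Pcdhgb1 was at −3.31 (adjusted p = 0.00413), but its exons are shared with the protocadherin gamma cluster, so its reads are uncertain. The smallest adjusted p of the comparison belonged to Aldh1a3 (ENSMUSG00000015134.14, GRCm38 chromosome 7, 66390890 to 66427517), an enzyme of retinoic acid synthesis named after its values were seen, with 466, 582 and 641 in MRTFB and 1691, 1939 and 1543 in control libraries (−1.62, SE 0.12, adjusted p = 0.000774; 0.00887 without the block). The secreted guidance ligand Slit2, chosen in the same way, had 822, 707 and 1003 in MRTFB and 2943, 3449 and 2209.7 in control libraries (−1.75, adjusted p = 0.00108; 0.00793 without the block), while Robo1, a receptor of Slit proteins on chromosome 16, was among the increases (0.46, adjusted p = 0.0211).

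**Figure D3:**
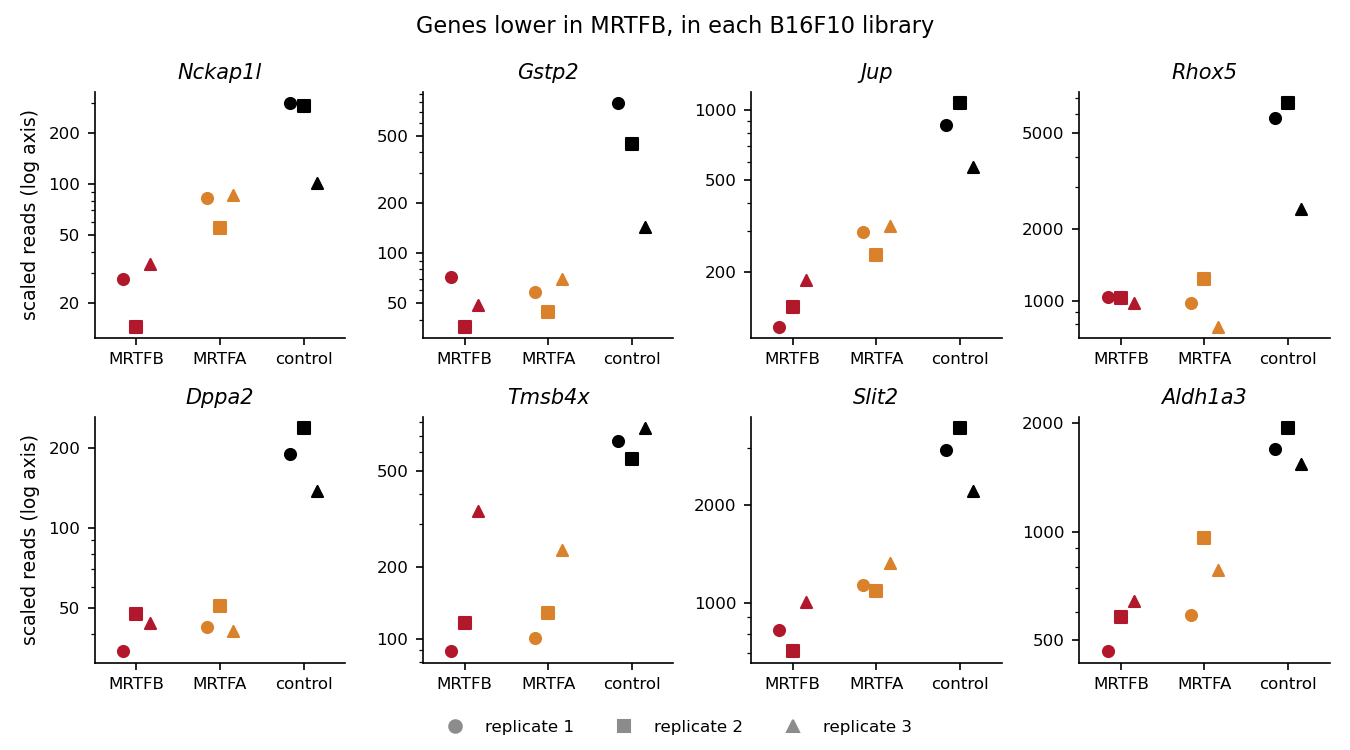
Scaled reads on a log axis for 8 genes called lower, in the 3 MRTFB (red), 3 MRTFA (orange) and 3 control (black) libraries of B16F10, with marker shape for replicate number. Every MRTFB library is below every control library, and the MRTFA libraries lie below the controls as well.

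Sterol synthesis held more called decreases than any other of the 28 gene lists examined. Of 24 tested sterol and fatty acid synthesis genes 12 fell and none rose, beside 2.83% of all genes called lower and 1.63% called higher. The list had a median difference of −0.32 and 21 of 24 fitted values below 0. The summed level of the 24 genes overlapped between the groups, at 142783 to 184128 scaled reads in MRTFB and 161063 to 183426 in control libraries. In pair 1 the MRTFB sum was slightly above its control, and in pairs 2 and 3 it was below. Hmgcs1, an early enzyme of the mevalonate pathway, had 4060.1, 3395 and 3824 scaled reads in MRTFB libraries, against 5351, 5126 and 5655 in control libraries (−0.52, SE 0.07, adjusted p = 0.00413). Msmo1, a sterol demethylation enzyme, had 2794, 2654 and 2867 in MRTFB and 4057, 4321 and 4054 in control libraries (−0.58, SE 0.08, adjusted p = 0.00529), and Fdps, which makes farnesyl diphosphate, had 1675, 1366 and 1361 in MRTFB and 2082, 1942 and 2012 in control libraries (−0.46, adjusted p = 0.0122). In these genes all MRTFB libraries were below all control libraries, and control replicate 3 was close to the other controls. Part of the exon bases of Fdps (26.7%) and Hmgcs1 (12.1%) overlap another gene. Mvd (−0.59, adjusted p = 0.027), Nsdhl (−0.44, adjusted p = 0.0177), Hsd17b7 (−0.39, adjusted p = 0.015), Lss, Cyp51, Sqle, Sc5d and the desaturase Scd1 were also among those that fell.

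The regulator Srebf2 was not called (−0.25, adjusted p = 0.122), and the fatty acid genes Fasn (−0.08, adjusted p = 0.705), Acaca (0.01) and Scd2 (0.06), likewise not called, were close to 0. Without the replicate block none of the 24 was called, the adjusted p being 0.0861 for Hmgcs1, 0.0755 for Msmo1 and 0.142 for Fdps. With the block, the count of 12 was 1 without MRTFB replicate 2, 2 without control replicate 2, 3 without control replicate 1 and 8 without MRTFB replicate 1, but 13 without MRTFB replicate 3 and 15 without control replicate 3; the list median stayed between −0.33 and −0.27 in these fits. Hmgcs1 kept its call in these 6 fits.

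**Figure D4:**
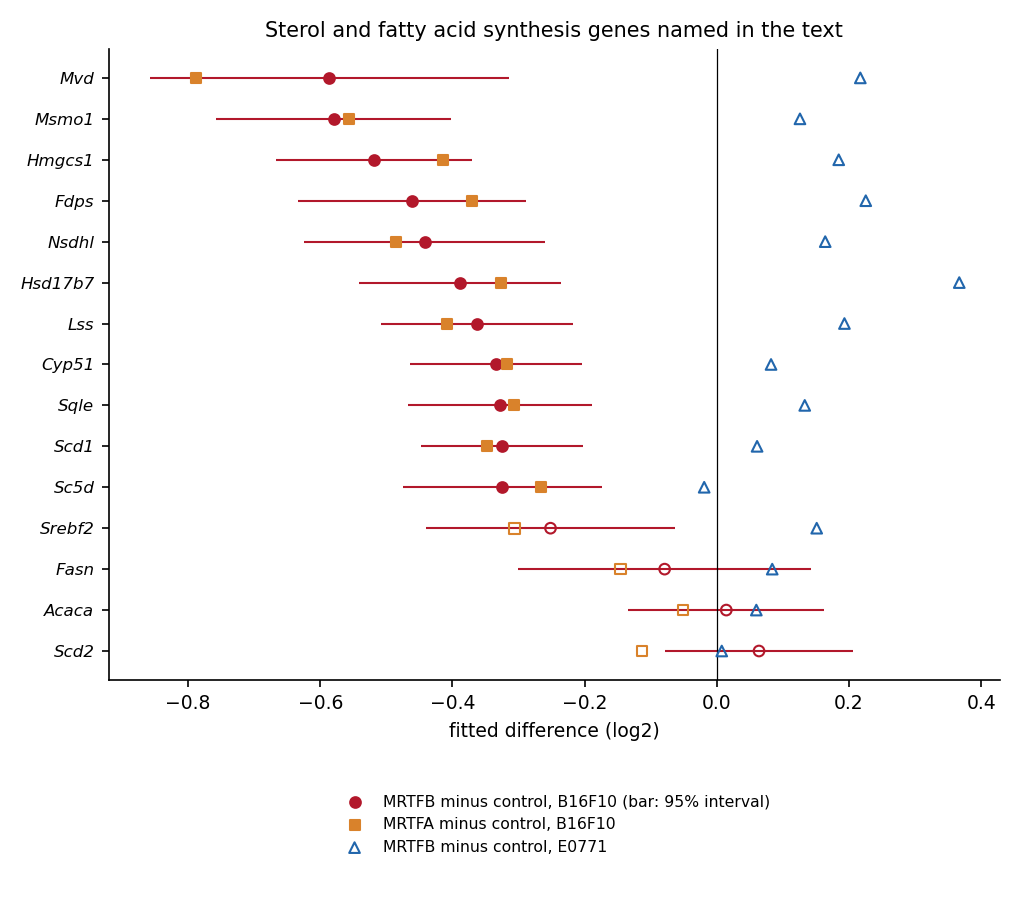
Fitted log2 differences of 15 of the sterol and fatty acid synthesis genes, those named in the text: MRTFB minus control in B16F10 (red circles, bars are 95% intervals), MRTFA minus control in B16F10 (orange squares) and MRTFB minus control in E0771 (blue triangles); filled symbols are called. In B16F10 MRTFB 11 of them are filled and lie left of 0, and in E0771 none is filled.

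Other lists held scattered decreases. Over all tested genes 2.83% were called lower and 1.63% higher. Of 23 tested immediate early genes, which are switched on within minutes of a stimulus, 5 fell and none rose. They were the zinc-finger factors Klf4 (293, 423 and 372 in MRTFB, 617, 893 and 542 in control libraries; −0.90, adjusted p = 0.00323) and Klf2 (−0.95, adjusted p = 0.0342), the nuclear receptors Nr4a3 (−0.60, adjusted p = 0.0115) and Nr4a1 (−0.33, adjusted p = 0.0214), and Ier3 (−0.60, adjusted p = 0.0151). Fos (−0.41, adjusted p = 0.151), Egr1 (0.46, adjusted p = 0.385) and Atf3 (0.49, adjusted p = 0.0944) were not called, and the count was 0 without the block, 2 with the 6 MRTFB and control libraries alone, 1 without MRTFB replicate 1 or either of control replicates 1 and 2, and 2 without MRTFB replicate 2. Of 5 tested simple epithelial genes Jup and E-cadherin Cdh1 fell; Cdh1 had 17.2, 18.6 and 14.03 scaled reads in MRTFB and 74.1, 66.2 and 27.7 in control libraries (−1.58, adjusted p = 0.0164). The other 3, Krt7 (0.21, adjusted p = 0.914), Krt19 (0.87, adjusted p = 0.424) and Pkp2 (1.45, adjusted p = 0.113), had fitted values above 0 and were not called, so the list median was 0.21. These 3 met the filter on low values only with the help of MRTFA libraries. With the 6 MRTFB and control libraries alone 2 genes of the list were tested, with a median of −2.03 and 1 called lower. Pkp2 was called higher by limma without control replicate 3 (adjusted p = 0.0417). The 12 such genes in the table, Jup being the larger part of their sum, added up to 142 to 252 scaled reads in MRTFB libraries and 610 to 1156 in control libraries.

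A few members fell in further lists, beside 2.83% of all genes. The p53 targets Trp53inp1 (−0.48, adjusted p = 0.0185) and Eda2r (−0.63, adjusted p = 0.00598) fell of 20, the stress factor Atf5 (−0.54, adjusted p = 0.0138) of 21 ATF4 response genes, and Raet1d, a ligand of the lymphocyte receptor NKG2D, of 9 activating and adhesion ligands. Raet1d had 206, 213 and 246 in MRTFB and 375, 419 and 369 in control libraries (−0.81, adjusted p = 0.0155). Without all libraries numbered 3, 5 ATF4 response genes were called lower and 1 higher. Coro1a, an actin-binding gene of leukocytes, was called lower of the 4 immune markers, with 4.77, 5.18 and 3.01 in MRTFB and 13.5, 9.74 and 15.3 in control libraries (adjusted p = 0.0481). This call was lost with edgeR (adjusted p = 0.0603) and, by limma, with a pseudocount of 5 (0.0589) and no filter on low values (0.0648). It was also lost in every fit that left out 1 library, and DESeq2 gave Coro1a no adjusted p. Of 22 respiratory chain genes Uqcrc1 rose (0.31, adjusted p = 0.0209, on chromosome 9), and 6 were called higher and 1 lower without all libraries numbered 3. No member was called among 24 ribosomal protein, 23 glycolysis and hypoxia, 20 death receptor and death signalling, 10 inhibitory ligand and 17 MHC class I genes, or among the 3 endothelial or fibroblast and 3 skeletal lineage markers. For glycolysis and hypoxia this rested on the libraries numbered 3: 20 of the 23 had fitted values below 0, and the number called lower was 3 with DESeq2, 5 without MRTFB replicate 3, 10 without control replicate 3 and 11 of 22 without all libraries numbered 3, the last pair each with 1 higher. Among MHC class I genes 3 were called lower without control replicate 3, and likewise without all libraries numbered 3. In each of these 2 fits 1 of 9 inhibitory ligand genes was called higher and 2 lower, and 3 of 9 activating and adhesion ligands higher and 3 lower. Without all libraries numbered 3, 1 death signalling gene was called higher and 1 lower, and 1 ribosomal protein gene lower. With DESeq2 1 inhibitory ligand gene was called lower. The death receptor Fas had 6.67, 3.11 and 9.02 in MRTFB and 1.92, 3.89 and 9.54 in control libraries (0.35, 95% interval −0.58 to 1.29, adjusted p = 0.684).

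Interferon-response genes moved strongly with replicate number. Of 24 tested genes 23 had a fitted value below 0 (median −0.42), yet Stat2 alone was called (563, 317 and 607 scaled reads in MRTFB, 750.3, 468 and 841 in control libraries; −0.48, adjusted p = 0.0203). Tetherin, Bst2, had 680.5, 634 and 3009.7 in MRTFB and 1175, 1083 and 3181 in control libraries (−0.55, adjusted p = 0.0653), and the RNA sensor Ddx58 686, 500.2 and 3332 in MRTFB and 1430.4, 924 and 3597 in control libraries (−0.68, adjusted p = 0.07). In pairs 1 and 2 the MRTFB library was well below its control, while in pair 3 both were high and close. Over the 9 libraries 22 of the 24 were higher in number 3 than in numbers 1 and 2 (median log2 1.55). The count called lower was 21 without control replicate 3, 19 without all libraries numbered 3, and 0 without MRTFB replicate 1 or 2 or control replicate 1 or 2. What number 3 stands for is not labelled, and its part in these values was not tested.

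None of the 21 melanocyte pigment and lineage genes was called, with a median of −0.03; Trpm1 was at 0.60 (adjusted p = 0.067) and the lineage factor Mitf at −0.03 (95% interval −0.25 to 0.19, adjusted p = 0.903). Tyrosinase, Tyr, had 11023, 12353 and 9814 scaled reads in MRTFB libraries and 7183, 7469 and 12991 in control libraries, so it was higher in pairs 1 and 2 and lower in pair 3. Without all libraries numbered 3, 10 melanocyte genes were called higher and 1 lower, and without control replicate 3 it was 7 and 0.

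Called increases were most frequent on chromosomes 16 and 9. Chromosome 16 held 41 called increases among 412 tested genes (9.95%) and 4 decreases (0.971%), and chromosome 9 held 40 among 760 (5.26%) and 11 decreases (1.45%), against 1.63% and 2.83% over all genes. The whole distribution was shifted there: over genes with a mean of at least 50 the median difference was 0.19 on chromosome 16 (359 genes, 88.3% of them above 0) and 0.13 on chromosome 9 (633 genes), against 0.0026 over 11134 genes. On chromosome 16 every 10-Mb bin had a median between 0.13 and 0.23, whereas on chromosome 9 the bins below 50 Mb had −0.0048 to 0.05 and those above it 0.15 to 0.20. The part of chromosome 14 from 90 Mb on had 0.19 (47 genes). On chromosome 1 from 110 Mb on the median was −0.13 (294 genes), with 26 called decreases among 377 tested genes (6.90%) and 2 increases. These boundaries were set after the values were seen.

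The shift was larger in pairs 1 and 2 than in pair 3. On chromosome 16 the median difference was 0.25 in pair 1, 0.28 in pair 2 and 0.06 in pair 3, and on distal chromosome 9 it was 0.22, 0.25 and 0.04. Relative to the mean of the 9 B16F10 libraries, chromosome 16 stood at 0.09, 0.11 and 0.04 in MRTFB replicates 1, 2 and 3, at −0.02, 0.08 and 0.01 in MRTFA replicates, and at −0.16, −0.15 and 0.01 in control replicates. Control replicates 1 and 2 thus lay apart from all 7 other libraries on chromosome 16, as they did on distal chromosomes 9, 14 and 1. The median of chromosome 16 for MRTFA minus the same controls was 0.12, and for MRTFB minus control in E0771 −0.01. DNA copy number was not measured, and its part in these values was not tested.

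**Figure D5:**
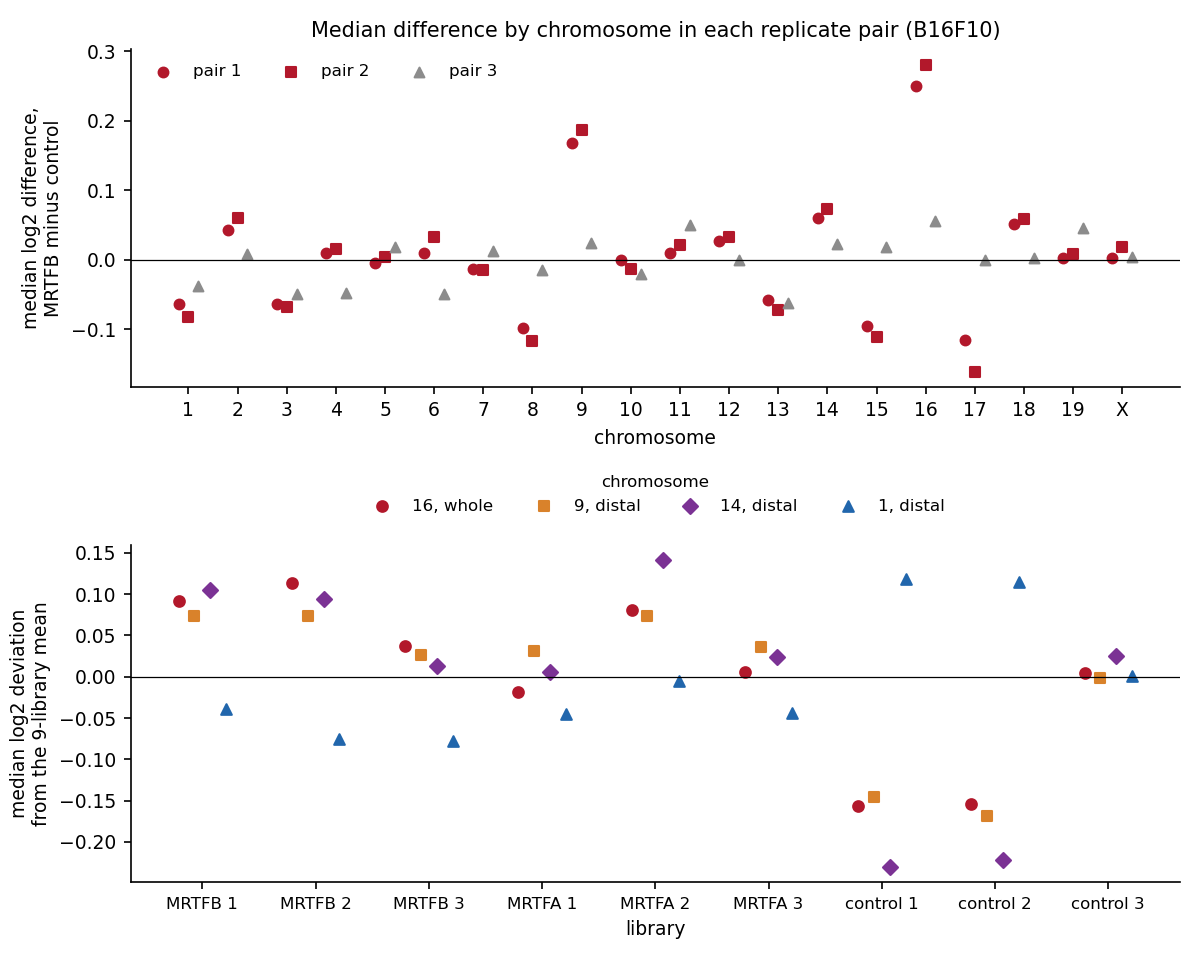
Upper panel, median log2 difference of MRTFB minus control over the genes of each chromosome with a mean of at least 50, for each replicate pair. Lower panel, median log2 deviation of each B16F10 library from the mean of the 9 libraries for chromosome 16 and the distal parts of chromosomes 9, 14 and 1; control 1 and control 2 lie at −0.16 and −0.15 on chromosome 16, below all other libraries.

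When each library's values were taken relative to the running median of 51 neighbouring genes, a setting added after the data were seen, 464 genes were called (160 higher, 304 lower), of which 384 were among the 603. Actg2 (5.10), Acta2 (3.89) and Acta1 kept their calls. Vcl (0.35, adjusted p = 0.0524), Myl9 (0.87, adjusted p = 0.0551), Smad3 (0.15, adjusted p = 0.187), Lpp (0.22, adjusted p = 0.169), Cnn1 (1.92, adjusted p = 0.0653), Coro1a (−1.38, adjusted p = 0.0633), Ccl5 (−0.66, adjusted p = 0.0528) and Uqcrc1 (0.17, adjusted p = 0.0798) were no longer called by limma. The sterol list then had 11 of 24 lower and the smooth muscle list 5 of 18 higher.

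Set directly against the B16F10 MRTFA libraries, MRTFB libraries were lower in most genes that differed: 359 genes were called (2.66%), 13 higher (0.0962%) and 346 lower (2.56%). The contractile genes led: 13 of 18 smooth muscle genes, 15 of 39 cytoskeletal genes and 8 of 14 striated muscle genes were lower in MRTFB. With the filter on the 6 MRTFB and control libraries alone, 15 of the 18, all 39 and 9 of the 14 were tested. The further members met the filter only with the help of MRTFA libraries, which by itself favours a lower level in MRTFB. At a minimum value of 50 the count of 359 was 239. Actc1 had 35.3, 9.32 and 195 scaled reads in MRTFB libraries and 9686, 6148 and 9915 in MRTFA libraries (difference −7.65, adjusted p = 6.16e-05), Cnn1 3.81, 1.04 and 25.1 in MRTFB and 1325, 799 and 1437 in MRTFA libraries (−7.50, adjusted p = 1.61e-05), and Acta2 3856, 2146 and 28018 in MRTFB and 58811, 37313 and 72885 in MRTFA libraries (−3.14, adjusted p = 0.0014). No MRTFB library reached the lowest MRTFA library for these 3 genes. Apol10b, an apolipoprotein L family gene, had 6 reads over the MRTFB libraries and 731 over the MRTFA libraries. Fas, at 67.6, 43.5 and 54.4 scaled reads in MRTFA libraries, was lower in MRTFB by a difference of −3.02 (adjusted p = 0.00227). Mkl1 was not called between the groups (−0.32, adjusted p = 0.301) and neither was Mkl2 (0.12, adjusted p = 0.709).

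The genes higher in MRTFB than in MRTFA included Sgpp2, with 61.0, 83.9 and 63.1 scaled reads in MRTFB and 18.1, 26.9 and 22.9 in MRTFA libraries (1.58, adjusted p = 0.00561), Piwil2, of the germline small-RNA pathway, with 61.0, 52.8 and 108 in MRTFB and 20.2, 21.7 and 49.6 in MRTFA libraries (1.30, adjusted p = 0.00651), and the LIM-domain gene Limd2 (0.30, adjusted p = 0.0397). Among them Slc7a2 had 29.5, 31.1 and 18.04 in MRTFB and 0 in every MRTFA library, with the limits given above. Among genes that fell against control, no sterol gene was called between MRTFB and MRTFA, nor were Rhox5 (0.05, SE 0.20), Gstp2 (−0.17, SE 0.41), Dppa2 (−0.09, SE 0.18), Jup (−0.95, SE 0.23, adjusted p = 0.0682) and Nckap1l (−1.57, SE 0.39, adjusted p = 0.0785). MRTFA libraries share their controls with MRTFB libraries, so their own difference from control is not independent of the MRTFB result, and neither are its calls. Rhox5 had 981, 1228 and 780.1 in MRTFA libraries, Gstp2 58.5, 44.5 and 69.6 and Jup 298, 237 and 317, all below the 3 controls given above. For the sterol list the median of MRTFA minus control was −0.31, with 14 of 24 lower, where 855 genes were called in all (6.33%), 538 higher (3.98%) and 317 lower (2.35%).

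In E0771 cells 33 genes were called for MRTFB against control (0.25%), 32 higher (0.243%) and 1 lower (0.00758%). Of the 220 genes called higher in B16F10, 187 were tested in E0771 and 10 were called higher there, which is 5.35% of the 187 and 31.2% of the 32: the actins Acta1, Acta2 and Actg2, with Tagln, Myl9, Myh11, Lmod1, Kcnmb1, Tnc and Psd3. Of the 383 called lower in B16F10, 280 were tested in E0771, none was called lower and Tmsb4x was called higher. The median E0771 difference was 0.01 for the B16F10 increases, 0.02 for the decreases and −0.0077 for all tested genes.

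The line difference itself, E0771 minus B16F10 effect over all 18 libraries with 14859 genes tested, was called for 81 genes (0.545%), 62 higher in E0771 (0.417%) and 19 lower (0.128%); 14 of the genes called higher in B16F10 and 44 of those called lower were among them. Actg2 had 872, 849 and 1016 scaled reads in E0771 MRTFB libraries and 354, 194 and 204 in E0771 control libraries, a smaller increase than in B16F10 (line difference −3.16, 95% interval −4.45 to −1.86, adjusted p = 0.0398). For Acta2 (−2.10, 95% interval −3.30 to −0.90, adjusted p = 0.142), Tagln (−0.47, −1.68 to 0.75, adjusted p = 0.817), Acta1 (−0.63, −2.13 to 0.87, adjusted p = 0.796) and Mkl2 (0.34, 0.08 to 0.59, adjusted p = 0.263) a difference between the lines was not called, with wide intervals. Mkl2 itself was called higher in E0771 (0.68, adjusted p = 0.00585). Tmsb4x had 5325, 4979 and 5063 in E0771 MRTFB and 3366, 2097 and 2501 in E0771 control libraries, a rise there and a fall in B16F10 (line difference 3.08, adjusted p = 0.00299). Cyr61 rose in E0771 (0.88, adjusted p = 0.00244) and its line difference was called (0.80, adjusted p = 0.0208).

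The sterol decrease also differed between the lines. The E0771 median of the list was 0.13 with none of 24 called, and the line difference was called for Hsd17b7 (0.76, adjusted p = 0.0164), Msmo1 (0.71, adjusted p = 0.0398), Hmgcs1 (0.70, adjusted p = 0.0259), Fdps (0.69, adjusted p = 0.0323), Lss (0.56, adjusted p = 0.0323) and Sqle (0.46, adjusted p = 0.0353). The count of 81 was 17 without the replicate block, 8 without B16F10 MRTFB replicate 2, 209 without B16F10 control replicate 3 and 187 without all libraries numbered 3.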

How the data were processed

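Total RNA of B16F10 and E0771 cells was sequenced after doxycycline at 500 ng/mL for 48 h. Per the submitters' processing notes, reads were handled with cutadapt 1.6, STAR 2.5.0a, HTSeq 0.5.3 and DESeq on mm10; for the annotation, strand setting and DESeq version, the sources used here name none. The deposited values are a scaled signal per gene: reads divided by a size factor, by the authors. In every library the values were whole multiples of 1 read (tolerance 0.001), so reads were recovered. For 5 libraries whose step lies within about 1% of 1, B16F10 MRTFB replicate 3 among them, a separate test for whole reads gave no support. Recovered reads gave the library totals, the edgeR and DESeq2 alternatives, and the read counts and counting intervals of a few low genes. The main test did not use them.

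The main test was limma 3.58.1 (R 4.3.3; trend) on log2(scaled reads + 1), which understates changes of low genes, over the 9 B16F10 libraries with replicate number as a block; the line difference used all 18 libraries with line-specific blocks. Genes needed at least 10 scaled reads in at least 3 fitted libraries. The block is the rule of the comparison; same-numbered MRTFB and control libraries deviated together from their group means (correlations 0.382, 0.435 and 0.486). The script was tested on simulated data. edgeR 4.0.16 and DESeq2 1.42.0 on recovered reads, TMM and upper-quartile scaling, a pseudocount of 5, other filters, fewer libraries and leaving out each library were alternatives; leaving out all libraries numbered 3 and centring on the running median of 51 neighbouring genes were added after seeing the data. Counting intervals are exact and cover counting error only, since no molecular identifiers are described.

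The libraries compared and the 28 gene lists were chosen with earlier results of these data known; 545 of 591 list symbols were in the table. Named were Mkl1, Mkl2, Srf and a set of known target genes, the 15 largest increases and 10 largest decreases called without overlap and with a mean of at least 50 in the higher group, up to 3 members of each list, and up to 3 genes for each direction of the other comparisons; further list members are given for completeness. Locations are from GENCODE M21, in which 18827 identifiers matched and 82 did not; promoters are from RefSeq (GRCm38.p6). A few members of the lists are counted in the list totals but are not reported here by name.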

Additional observations from a re-analysis of the deposited data

Results flagged for a closer look

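The MRTFB effect differed between the lines, by the limma contrast E0771 minus B16F10 over all 18 libraries, for 22 of the named genes; the values here are that difference on the log2 scale.

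Of these, 14 were called lower in B16F10 and none of them was called lower in E0771: Pcdhgb1 (3.07), Tmsb4x (3.08), Coro1a (3.03), Hdac9 (2.96), Nckap1l (2.78), Jup (2.74), Cdh1 (2.57), Dppa2 (2.57), Rhox5 (2.19), Eda2r (1.02), Klf4 (0.93) and the sterol enzymes Msmo1 (0.71), Hmgcs1 (0.7) and Fdps (0.69). Nckap1l had 1114, 955 and 1349 scaled reads in E0771 MRTFB libraries and 1224, 1129.6 and 1810.0 in E0771 control libraries. Rhox5 had 10031, 10163 and 9660.0 in E0771 MRTFB libraries and 10719.5, 9346 and 9142 in E0771 control libraries. Both genes were expressed in E0771 above their level in any B16F10 library, with overlapping groups. Hdac9 and Cdh1, in contrast, did not reach the minimum level for a test in E0771 alone.

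The increase was larger in B16F10 for Actg2 (−3.16), Pnma5 (−1.6), Fam132b (−1.41), Timp1 (−1.22) and Slc7a2 (−4.41), which was at 0 in all 6 E0771 MRTFB and control libraries. Timp1 had 1374, 1623 and 1830.5 scaled reads in E0771 MRTFB libraries and 1705, 1575 and 1916 in E0771 control libraries. In the remaining genes B16F10 had no call of its own. Prkar1b (3.38) had 14.6, 17.9 and 30.9 in E0771 MRTFB and 1.01, 6.01 and 0.934 in E0771 control libraries; Nr1h3 (−2.13) was below the minimum level for a test in B16F10; and Cyr61 (0.8) was called higher in E0771.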

How the results depend on the processing

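The count of 603 genes called for MRTFB against control was 17 with no replicate block, 160 with the 6 MRTFB and control libraries alone, 1642 without all libraries numbered 3, and 64 to 1645 without 1 library. With edgeR 546, with DESeq2 793, and with TMM 609 were called. For MRTFB against MRTFA (359) the count was 148 without the block, 239 at a minimum value of 50 and 155 to 457 without 1 library. For the line difference (81) it was 17 without the block, 200 with DESeq2, 34 with the 12 MRTFB and control libraries alone, 187 without all libraries numbered 3 and 8 to 209 without 1 library. Among named genes, the fit without the block kept 64 MRTFB-against-control values on their side of the threshold and lost the call for 52. Every replicate number is present in every group, so the fitted differences were the same in both fits and no direction could change.

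The values that changed direction belonged to genes that were not called. Without 1 library the fitted difference ran from −1.505 to 0.0328 for Cd74, −0.258 to 0.153 for Ckm, −0.720 to 0.0975 for Col6a3, −0.0514 to 0.212 for Cyr61, −0.198 to 0.708 for Fas, −0.0528 to 1.58 for Fhl2, −0.246 to 0.0567 for Mkl1, −0.124 to 0.162 for Pdgfra and −0.0607 to 0.150 for Srf. Without all libraries numbered 3 it was −0.0483 for Cyr61, −0.0990 for Pdgfra and −0.0704 for Srf, and relative to neighbouring genes 0.00427 for Ckm and −0.0375 for Tpm1. The cause was not tested. The median half-width of the 95% interval of a gene was 0.19 with the block and 0.30 without it.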

Other observations

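Several genes outside the lists were called in every fit that left out 1 library; they were picked from those after their values were seen. Von Willebrand factor, Vwf, averaged 296 ± 30.6 scaled reads in MRTFB libraries and 789 ± 117 in control libraries (SD, n = 3 each; −1.41, adjusted p = 0.00413 by limma). The lysosomal acid lipase Lipa averaged 3019 ± 131 in MRTFB and 5110.3 ± 797 in control libraries (−0.75, adjusted p = 0.00413), the extracellular superoxide dismutase Sod3 104 ± 67.0 in MRTFB and 286 ± 136 in control libraries (−1.55, adjusted p = 0.00108), and the receptor Igf2r, which carries lysosomal enzymes, 7653 ± 672 in MRTFB and 10825 ± 391 in control libraries (−0.50, adjusted p = 0.00424). All 4 fell in MRTFB libraries. Among the increases, Lgr6, a receptor for R-spondins, averaged 258 ± 189 in MRTFB and 98.1 ± 85.4 in control libraries (1.48, adjusted p = 0.00174), the endocytic receptor Ly75 690.1 ± 55.0 in MRTFB and 407 ± 52.1 in control libraries (0.76, adjusted p = 0.00214), and the cell cycle kinase Cdk6 874 ± 97.4 in MRTFB and 609 ± 111 in control libraries (0.53, adjusted p = 0.005), while its partner cyclin Ccnd3 fell (−0.62, adjusted p = 0.00413). For Lgr6, both libraries numbered 3 were the highest of their group.

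The 9 genes of the mitochondrial genome in the table had a median difference of 0.23, which was 0.40 in pair 1, 0.38 in pair 2 and −0.07 in pair 3, and none of them was called.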
